A study of Mus musculus with 28 samples.

Results

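The genes described here are 8 secreted antagonists of Wnt signalling: Frzb, Sfrp1, Sfrp2, Sfrp4, Sfrp5, Wif1, Dkk2 and Dkk3. They were chosen by name, as members of the secreted Frizzled-related protein, Wnt inhibitory factor and Dickkopf families, with earlier results of these data known. All 8 were found among the 41605 gene identifiers of the count table, and all 8 passed the filter on low counts that left 17700 genes for testing.

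Polyadenylated RNA of mouse peripheral nerve was sequenced in bulk at 7 stages with 4 libraries each, 28 libraries in all, from wild-type C57BL/6J mice that carried no transgene and received no treatment. The stages were embryonic day (E) 13 and 17 as labelled, which the design text gives as E13.5 and E17.5, and postnatal day (P) 1, 5, 14, 24 and 60. Each E13 library held several nerves distal to the dorsal root ganglia of 2 pooled embryos of the same sex, each E17 library held sciatic nerves of 2 pooled embryos, and each postnatal library held the sciatic nerves of 1 mouse. Male and female samples were equally many at each stage, and the labels of single libraries do not say which is which. From E17 on, the sciatic nerves had been stripped of their outer sheaths by hand before RNA extraction, whereas the E13 nerves had not. Stage and dissection therefore cannot be told apart between E13 and E17.

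Wnt proteins are secreted, lipid-bearing signals that bind Frizzled receptors and LRP co-receptors on the receiving cell, which stabilises beta-catenin and switches on genes through TCF and LEF factors. Secreted antagonists act outside the cell. Frzb and the Sfrp proteins carry a cysteine-rich domain like that of Frizzled and bind Wnt ligands, Wif1 binds Wnt ligands through a domain of its own, and the Dickkopf proteins Dkk1 and Dkk2 bind the LRP co-receptors. Dkk3 is a divergent Dickkopf protein whose place in the pathway is less clear. In nerve, the Schwann cells that wrap axons lie among endoneurial fibroblasts, and the perineurium and epineurium form the sheaths around them.

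Total counts ran from 13899895 to 37662780 per library. Markers of Schwann cells (Sox10, Mbp, S100b and Ngfr, all 4 present at every stage) did not share 1 course. Mbp, a myelin protein, averaged 67.7 CPM (counts scaled to a common library total) at E13, 51459 CPM at P14 and 28317 CPM at P60, and S100b went from 14 CPM at E13 to 672 CPM at P14 and 972 CPM at P60. Sox10 averaged 468 CPM at P14 and 449 CPM at P60, and Ngfr went from 544 CPM at E17 to 36.2 CPM at P60. Neuronal cell body markers (Isl1, Pou4f1 and Snap25) summed to 107 to 297 CPM in the E13 libraries, and their stage means were 1.16 to 8.73 CPM afterwards, while markers of skeletal muscle ran from 17.9 to 454 CPM at E13 and averaged 0.856 to 11.2 CPM later. In 3 libraries the counts followed the GC content of genes, with slopes of -0.93 and 0.73 log2 units per 10 percentage points in E13 replicates 1 and 4 and -0.43 in P1 replicate 1. In the other 25 libraries the slopes lay between -0.16 and 0.20.

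Each of the 8 antagonists varied over the 7 stages by the test of all stages together (adjusted p under 0.05 and stage means at least 2-fold apart), which 70.0% of all genes also passed. In limma-voom Sfrp4 did not pass this test and the other 7 did. Wif1 passed the low-count filter through its E13 libraries alone, so its result here is not independent of the filter. The stage means of Frzb spanned 10.08 log2 units, a range that 1.33% of all genes reached, and those of Wif1 spanned 5.59 log2 units. The other 6 spanned between 3.19 (Sfrp5) and 4.36 log2 units (Sfrp4). The CPM values use library totals scaled by TMM, a library-size correction that is robust to a few abundant genes, and are given as mean ± SD of 4 libraries. A call in a comparison needed a fold change of at least 2 and, adjusted across the 17700 tested genes, a p under 0.05. In bulk tissue, fewer cells of a type and less RNA per cell cannot be told apart. The plot of single libraries shows the 8 time courses, each on its own axis.

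**Figure D1:**
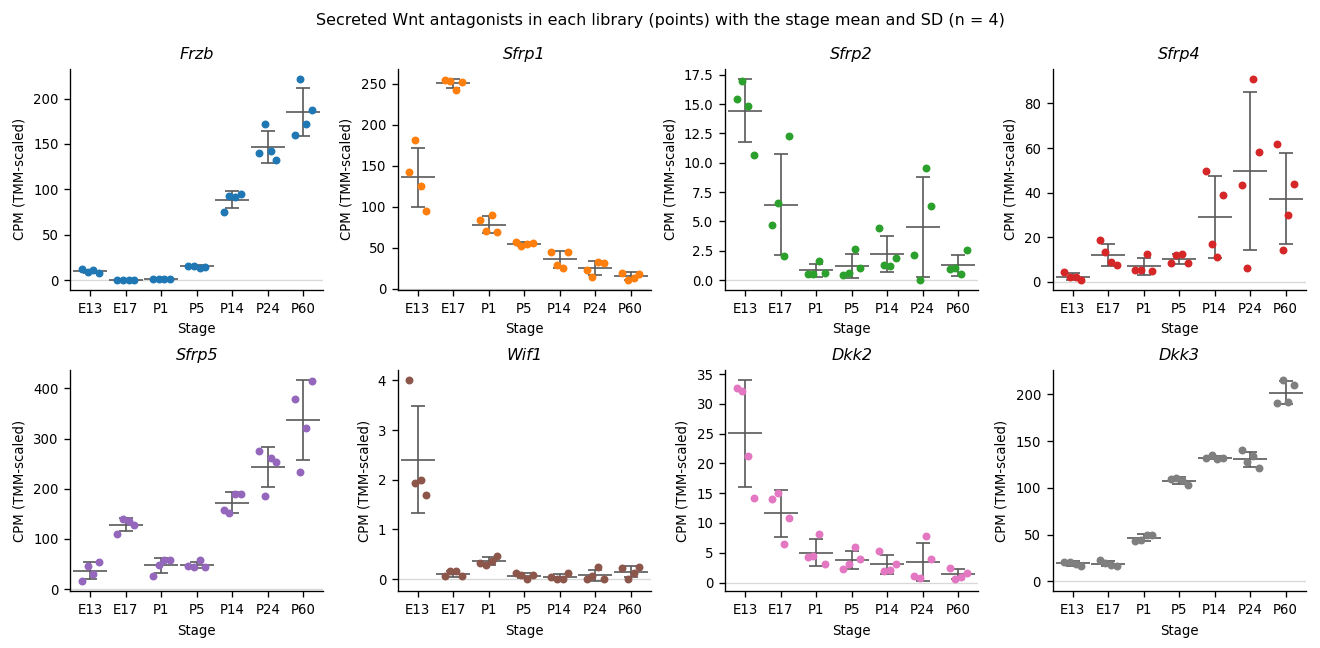
TMM-scaled CPM of each antagonist (vertical axes, linear, 1 scale per gene) in each of the 28 libraries (points) by stage (horizontal axes), with the stage mean as a horizontal line and the SD of 4 libraries as error bars. Frzb went from 0.177 CPM at E17 to 185 CPM at P60, Sfrp1 from 251 to 15.4 CPM, and the points of Sfrp4 spread most widely at P24, from 6.02 to 91 CPM.

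Compared per length of exon (RPKM, CPM divided by the exon length in kilobases), the gene with the highest level changed along the timeline. Sfrp1 led at E13 with 31.1 RPKM, followed by Sfrp5 with 19.5 RPKM. Sfrp5 led at E17 (67.7 RPKM) and P1 (25.2 RPKM), Dkk3 led at P5 (32.1 RPKM), and Sfrp5 led again from P14 on with 90.7, 128 and 177 RPKM at P14, P24 and P60. The summed level of the 8 genes was 74.3 ± 12.4 RPKM (SD, n = 4) at E13 and 140 ± 6.46 RPKM at E17. It dropped to 60.7 ± 9.90 RPKM in P1 nerves, with 78.3 ± 4.45 RPKM at P5. In P14, P24 and P60 nerves the sum was 175 ± 12.3, 233 ± 27.7 and 308 ± 41.0 RPKM. Of this sum Sfrp5 held 57.6% at P60, Dkk3 19.5% and Frzb 18.6%, whereas Sfrp1 held 41.9% at E13 and 1.14% at P60. Sfrp2, Wif1 and Dkk2 together stayed among the 3 lowest levels at P14, P24 and P60.

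**Figure D2:**
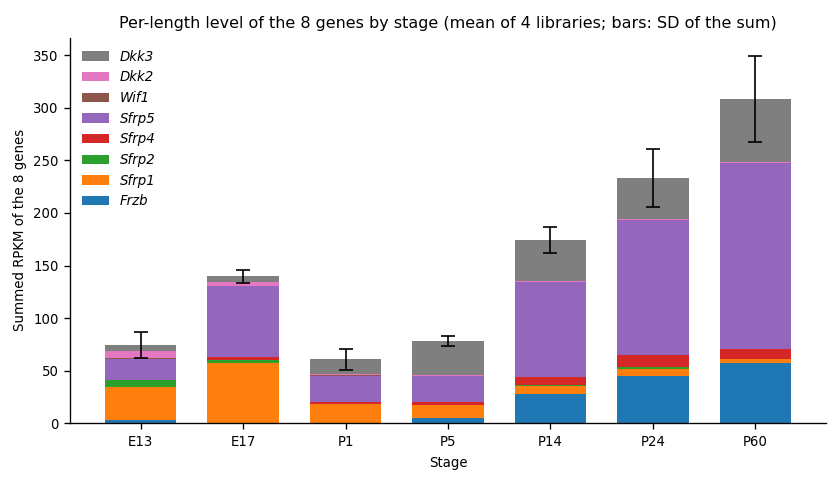
Mean RPKM of the 8 antagonists stacked by stage (vertical axis, linear from 0), with error bars for the SD of the sum over 4 libraries. The stack is 140 RPKM high at E17, 60.7 at P1 and 308 at P60, and its largest section passes from Sfrp1 at E13 (31.1 RPKM) to Sfrp5 at P60 (177 RPKM).

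Frzb (ENSMUSG00000027004, chromosome 2, 80411970 to 80447625, minus strand) encodes a secreted Frizzled-related protein that binds Wnt ligands. It was detected in unstripped E13 nerves at 11.8, 8.60, 10.7 and 7.79 CPM in replicates 1 to 4. In the E17 libraries it was close to absent at 0.110, 0.370, 0.0388 and 0.189 CPM, which rest on 1 to 7 counts each. The P1 libraries held 0.656, 1.08, 0.620 and 0.714 CPM. No E17 or P1 library reached the E13 range, and the E17 and P1 libraries did not overlap. At P5 the values were 15.9, 15.8, 13.4 and 14.7 CPM. They were 74.7, 93.0, 92.0 and 95.1 CPM at P14, then 140, 172, 142 and 132 CPM at P24. The P60 libraries held 160, 222, 172 and 188 CPM, so that P1, P5 and P14 each lay wholly below the next stage, and the ranges of P24 and P60 overlapped.

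Frzb fell 56.7-fold from E13 to E17 (log2 fold change -5.83 ± 0.28, SE; adjusted p = 8.7e-16, edgeR quasi-likelihood test). It then rose 4.46-fold to P1 (log2 fold change 2.16; adjusted p = 4.41e-05) and 19.5-fold to P5 (log2 fold change 4.29 ± 0.21; adjusted p = 3.77e-14). The next step was 5.94-fold to P14 (2.57 ± 0.17; adjusted p = 6.58e-12). Without E17 replicate 2, which held 7 of the few counts at that stage, the log2 fold changes were -6.52 for E17 against E13 and 2.85 for P1 against E17. A difference of 0.73 ± 0.16 log2 units from P14 to P24 (adjusted p = 0.00436) passed the test and stayed under the 2-fold minimum. From P24 to P60 the difference was 0.34 ± 0.16 (adjusted p = 0.159). In order of level, P60 and P24 did not pass the test as neighbours, and P24, P14, P5, E13, P1 and E17 followed with each neighbour differing.

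Frzb is also known as a cartilage gene, and cartilage markers (Acan, Col9a1, Col11a2, Matn1, Comp, Cnmd and Hapln1) were set beside it. Their sum averaged 70.5 CPM at E13, 86.9 CPM at E17, 34.3 CPM at P1 and 42.2 CPM at P60. At P60, where Frzb was highest, 3 of the 7 (Acan, Matn1 and Hapln1) had at most 3 counts in every library, whereas Cnmd held most of the sum. Cnmd, a cartilage matrix protein, averaged 44.1 CPM at E13, 18.5 CPM at E17 and 0.896 CPM at P1, then 2.34, 17, 35.5 and 32.2 CPM from P5 to P60, so its mean was lowest at P1 and higher at each later stage than at P1. Comp went from 0.0467 CPM at P1 to 2.99 CPM at P60, while Col9a1 went from 24.9 to 1.55 CPM. The part of cartilage in the levels of Frzb was not tested.

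Sfrp1 (ENSMUSG00000031548, chromosome 8, 23411502 to 23449632, plus strand), a Wnt-binding Frizzled-related protein of mesenchyme and epithelium, ran the other way after E17. The E13 libraries held 143, 181, 125 and 94.7 CPM, and the E17 libraries 254, 253, 243 and 252 CPM. P1 held 83.8, 70.3, 89.4 and 69.2 CPM and P5 56.7, 51.6, 54.1 and 55.3 CPM. Every E17 library stood above every other library of the series, and every P5 library stood below every P1 library. The values were 44.4, 28.4, 25.2 and 45.3 CPM at P14. They were 23.0, 14.7, 33.1 and 30.9 CPM at P24 and 19.7, 10.6, 12.8 and 18.5 CPM at P60, with overlap between neighbouring late stages.

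The difference of Sfrp1 from E13 to E17 was 0.88 ± 0.22 log2 units (adjusted p = 0.00107), under the 2-fold minimum. Sfrp1 then fell 3.21-fold from E17 to P1 (log2 fold change -1.68 ± 0.22; adjusted p = 1.36e-06). Each later step was smaller than 2-fold, with log2 differences of -0.52 (adjusted p = 0.105), -0.60 (0.0403), -0.49 (0.26) and -0.73 (0.0292) in turn. Added up, P60 stood 5.07-fold below P1 (-2.34 ± 0.23; adjusted p = 1.83e-09). In order of level, P1 and P5 did not pass the test at an adjusted p of 0.05, although their libraries did not overlap, nor did P14 and P24, and the other neighbours passed.

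Sfrp5 (ENSMUSG00000018822, chromosome 19, 42197971 to 42202252, minus strand), another Wnt-binding Frizzled-related protein, had 2 periods of high level with a trough around birth. The E13 libraries held 15.9, 46.8, 30.5 and 54.8 CPM, with the lowest and the highest in replicates 1 and 4, the libraries with opposite GC trends. E17 held 110, 140, 136 and 129 CPM. P1 held 26.1, 49.1, 58.6 and 57.4 CPM, the lowest again in the library with a GC trend. All E17 libraries lay above all libraries of E13, P1 and P5. P5 held 45.7, 44.3, 57.3 and 43.5 CPM and P14 159, 152, 190 and 190 CPM. The values were 276, 186, 261 and 253 CPM at P24 and 378, 233, 322 and 415 CPM at P60. The P14 libraries were above all P5 libraries, while P14 overlapped P24 and P24 overlapped P60.

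Sfrp5 rose 3.48-fold from E13 to E17 (log2 fold change 1.80 ± 0.27; adjusted p = 1.67e-06) and fell 2.69-fold from E17 to P1 (-1.43 ± 0.26; adjusted p = 0.000128). Between P1 and P5 the fitted difference was 0.00 log2 units with an SE of 0.26. It rose 3.62-fold from P5 to P14 (1.85 ± 0.27; adjusted p = 4.7e-06). The later steps of 0.50 ± 0.26 and 0.47 ± 0.26 log2 units did not pass (adjusted p = 0.345 and 0.249). P60 stood 7.05-fold above P1 (2.82 ± 0.27; adjusted p = 1.13e-09). Its order of level ran P60, P24, P14, E17, P1, P5 and E13, in which E17 and P1 passed the test and no other neighbours did.

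The markers of perineurial cells (Itgb4, Slc2a1 and Cldn1, all 3 present at every stage) were set beside Sfrp5. Their sum ran from 39.1 to 72.7 CPM at E13 and from 244 to 283 CPM at E17. It ran from 150 to 226 CPM at P1 and from 173 to 218 CPM at P5, and then from 452 to 551 CPM at P14, 518 to 785 CPM at P24 and 989 to 1387 CPM at P60. At E17 and P1 Itgb4 averaged 144 and 113 CPM and Slc2a1 62.6 and 23.0 CPM, whereas Cldn1 averaged 54.2 and 58.5 CPM. Itgb4 was the largest part of the sum at P60, at 814 CPM. The sum of endothelial markers (Pecam1, Cldn5 and Cdh5) averaged 130 CPM at E13, 202 CPM at E17, 114 CPM at P1 and 149 CPM at P5. At P14, P24 and P60 the endothelial sum averaged 192, 210 and 290 CPM. The part of perineurial cells, which the stripping was meant to remove, and of endothelial cells in the levels of Sfrp5 was not tested.

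Sfrp4 (ENSMUSG00000021319, chromosome 13, 19623104 to 19632994, plus strand), a Frizzled-related protein of connective tissue and bone, was low at E13 with 4.37, 2.14, 2.09 and 0.842 CPM. The E17 libraries held 18.6, 13.3, 8.88 and 7.35 CPM, all above the E13 libraries. P1 held 5.36, 5.12, 12.6 and 4.81 CPM and P5 8.50, 12.1, 12.3 and 8.48 CPM. The libraries of 1 stage differed severalfold, by 5.19-fold between the lowest and the highest at E13, 4.51-fold at P14, 15.1-fold at P24 and 4.39-fold at P60. They held 49.5, 16.8, 11 and 39.0 CPM at P14, and 43.5, 6.02, 91 and 58.1 CPM at P24. P60 held 61.8, 14.1, 29.8 and 43.8 CPM. The lowest P14 library lay within the P5 range and the lowest P24 library lay below it, while all P60 libraries were above all P1 libraries.

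Sfrp4 rose 4.96-fold from E13 to E17 (log2 fold change 2.31 ± 0.62; adjusted p = 0.00204), a call that limma-voom did not make. It rose 2.81-fold from P5 to P14 (1.49 ± 0.56; adjusted p = 0.0465) with overlapping libraries, and this call was lost in 13 of 19 alternative settings. Its P60 level was 5.36-fold above P1 (2.42 ± 0.58; adjusted p = 0.000788). The remaining adjacent steps did not pass (adjusted p = 0.328, 0.557, 0.565 and 0.701). Of its neighbours in order of level, P1 and E13 passed the test (adjusted p = 0.031) and no other pair did.

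Sfrp2 (ENSMUSG00000027996, chromosome 3, 83766321 to 83774316, plus strand), a Frizzled-related protein of embryonic mesenchyme, was highest at E13 with 15.4, 17, 14.8 and 10.6 CPM. E17 held 4.73, 6.60, 2.06 and 12.3 CPM. The P1 libraries held 0.547, 0.500, 1.64 and 0.558 CPM and the P5 libraries 0.459, 0.602, 2.65 and 1.06 CPM. All P1 libraries lay below all E17 libraries, and replicate 3 was the highest at both P1 and P5. Later values were 4.45, 1.30, 1.23 and 1.90 CPM at P14. P24 held 2.13, 0, 9.58 and 6.28 CPM, where replicate 2 had 0 counts, which allows up to 3 counts. P60 held 0.950, 1.02, 0.497 and 2.57 CPM.

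Sfrp2 fell 7.78-fold from E17 to P1 (log2 fold change -2.96 ± 0.77; adjusted p = 0.00412), a call that limma-voom did not make, and by 3.54 on the log2 scale without P1 replicate 3. From E13 to E17 the difference was -1.19 ± 0.67 log2 units (adjusted p = 0.126), where limma-voom did call Sfrp2 lower, and none of the other adjacent steps passed the test (adjusted p between 0.111 and 0.722). No neighbours in its order of level passed the test. Its gene overlaps Gm26771 on the opposite strand, which had 22 counts in all against 2823 for Sfrp2, and whether the counting used strand is not stated.

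Wif1 (ENSMUSG00000020218, chromosome 10, 121033960 to 121100650, plus strand), the Wnt inhibitory factor, was above a few counts at E13 and P1 alone. The E13 libraries held 4.01, 1.94, 1.99 and 1.68 CPM, from 32 to 121 counts. P1 held 0.328, 0.292, 0.365 and 0.465 CPM, from 7 to 15 counts, and every other library had at most 5 counts. Wif1 fell 20.5-fold from E13 to E17 (log2 fold change -4.36 ± 0.65; adjusted p = 1.88e-06). From E17 to P1 the difference was 1.65 ± 0.70 log2 units (adjusted p = 0.0775). It did not pass, although the libraries did not overlap, and limma-voom called Wif1 higher at P1. Its level at P5, where no library had more than 3 counts, was at least 2.82-fold lower than at P1, taking 3 counts in the shallowest P5 library as the floor (adjusted p = 0.0259). That call was lost when any of 4 single libraries was left out. In order of level E13 and P1 passed the test as neighbours (adjusted p = 9.5e-05) and no others did. Wif1 was under the low-count filter in every fit without E13 libraries, so it was tested through the stage where it was highest. Its fall from E13 and its variation over the stages are therefore not independent of the filter.

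Dkk2 (ENSMUSG00000028031, chromosome 3, 132085292 to 132180304, plus strand), a Dickkopf protein that binds the LRP co-receptors, was highest in the embryo. The E13 libraries held 32.6, 32.1, 21.3 and 14.2 CPM and the E17 libraries 14, 15.1, 6.48 and 10.8 CPM, so that the lowest E13 library lay within the E17 range. P1 held 4.26, 4.54, 8.20 and 3.13 CPM and P5 2.33, 3.12, 5.90 and 3.97 CPM, with replicate 3 highest at both stages. The later stages stayed low and uneven. Values were 5.27, 1.86, 2.08 and 3.04 CPM at P14, and 1.18, 0.837, 7.80 and 3.99 CPM at P24. They were 2.41, 0.581, 0.995 and 1.63 CPM at P60, all below all P1 libraries.

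Dkk2 fell 2.17-fold from E13 to E17 (log2 fold change -1.11 ± 0.46; adjusted p = 0.039), a call lost in 6 of 19 alternative settings. The step from E17 to P1 of -1.20 ± 0.47 log2 units did not pass (adjusted p = 0.0578) and passed in 9 of 20 alternatives. P60 stood 3.58-fold below P1 (-1.84 ± 0.55; adjusted p = 0.00498). Except for E13 and E17, no neighbours in its order of level passed the test.

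Dkk3 (ENSMUSG00000030772, chromosome 7, 112116017 to 112159057, minus strand) had libraries of a stage that lay close together. The E13 libraries held 21.1, 21, 17.9 and 16.5 CPM and the E17 libraries 22.3, 19.8, 17.2 and 16.1 CPM, in overlapping ranges. P1 held 43.4, 43.7, 49.9 and 49.3 CPM and P5 109, 111, 108 and 103 CPM. All P1 libraries lay above all E17 libraries, and all P5 libraries above all P1 libraries. P14 held 132, 135, 130 and 131 CPM and P24 140, 127, 134 and 122 CPM. The P60 libraries held 191, 215, 192 and 210 CPM, above all other libraries.

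Dkk3 rose 2.47-fold from E17 to P1 (log2 fold change 1.30 ± 0.10; adjusted p = 5.06e-11) and 2.31-fold from P1 to P5 (1.21 ± 0.10; adjusted p = 5.16e-10). The step from P5 to P14 was 0.30 ± 0.10 log2 units (adjusted p = 0.0196) and that from P24 to P60 0.63 ± 0.10 (adjusted p = 2.62e-05), both under the 2-fold minimum. P14 and P24 did not pass the test (adjusted p = 0.981), nor did E13 and E17 (adjusted p = 0.873). P60 stood 4.34-fold above P1 (2.12 ± 0.10; adjusted p = 3.88e-16).

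Adjacent comparisons share the libraries of a stage and are not independent. Between E13 and E17, 2 antagonists were called higher at E17 (Sfrp4 and Sfrp5), against 14.2% of all genes, and 3 lower (Frzb, Wif1 and Dkk2), against 21.2% of all genes. Of these 3, Wif1 was tested only through its E13 libraries, where it was highest. Between E17 and P1, 2 were called higher at P1 (Frzb and Dkk3), where 6.31% of all genes were, and 3 lower (Sfrp1, Sfrp2 and Sfrp5), where 5.41% were. From P1 to P5 the same tests called Frzb and Dkk3 higher, beside 4.05% of all genes, and Wif1 lower, beside 1.79%. From P5 to P14 they called 3 higher (Frzb, Sfrp4 and Sfrp5), beside 7.11% of all genes, and 0 lower, beside 4.91%. At an unadjusted p under 0.05, Sfrp1 was lower in that comparison, and neither DESeq2 nor limma-voom called a member lower.

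After P14 no antagonist was called in an adjacent step by edgeR, limma-voom or DESeq2. From P14 to P24, 1.51% of all genes were called higher and 1.14% lower, and at an unadjusted p under 0.05 Frzb was higher and Sfrp1 lower. From P24 to P60, 2.55% of all genes were called higher and 3.41% lower, and at an unadjusted p under 0.05 Frzb and Dkk3 were higher and Sfrp1, Sfrp2 and Dkk2 lower. The median log2 fold change of the 8 antagonists from P24 to P60 was -0.04, and that of all genes tested was -0.01.

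Set against the newborn nerve, the adult nerve was called higher in 4 antagonists (Frzb, Sfrp4, Sfrp5 and Dkk3), beside 20.3% of all genes, and lower in 2 (Sfrp1 and Dkk2), beside 15.2% of all genes. The remaining 2, Sfrp2 and Wif1, had log2 fold changes of 0.64 ± 0.84 (adjusted p = 0.523) and -1.25 ± 0.71 (adjusted p = 0.129). Frzb was 242-fold higher (log2 fold change 7.92 ± 0.23; adjusted p = 1.87e-20). The median log2 fold change of the 8 genes was 1.38, beside -0.02 for all genes tested. The same 6 genes were called by DESeq2 and by limma-voom.

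**Figure D3:**
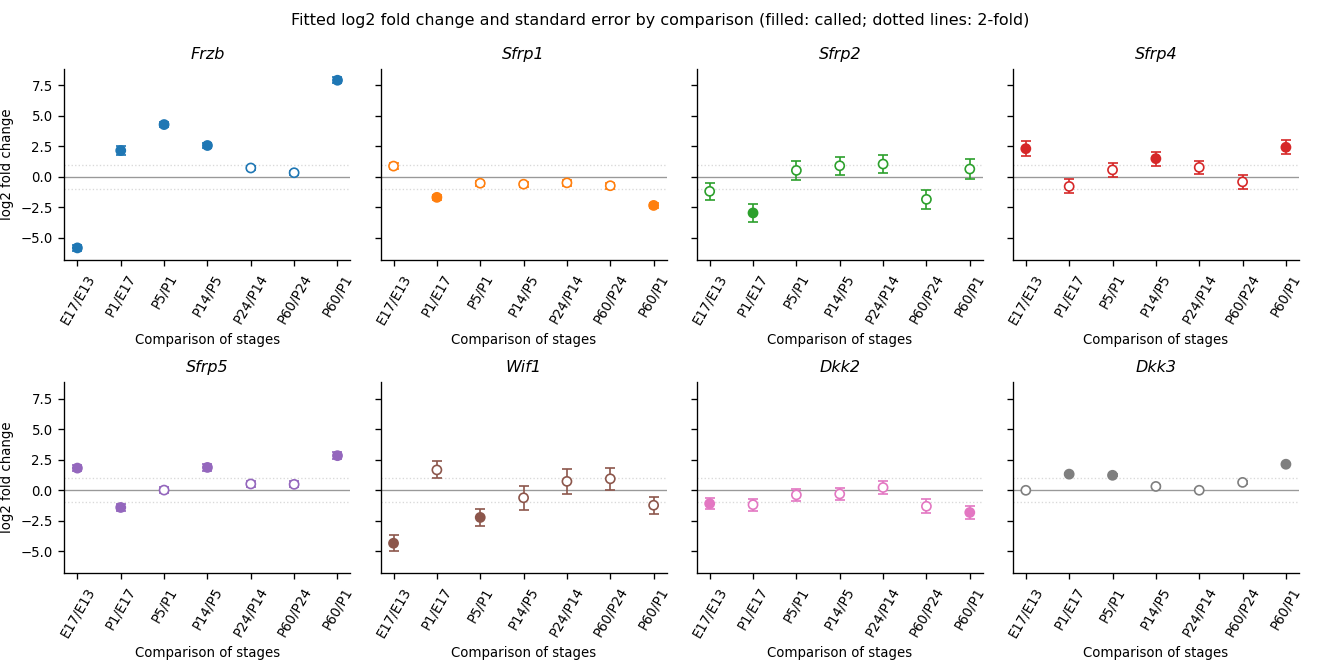
Fitted log2 fold change (vertical axes, shared scale) of each antagonist in the 6 adjacent comparisons and P60 against P1 (horizontal axes; the later stage over the earlier one), with the standard error as bars and filled points for called genes. The points of Frzb run from -5.83 (E17 against E13) to 7.92 (P60 against P1), and no point is filled for P24 against P14 or P60 against P24.

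At P24 and P60 the libraries numbered 2 stood apart in several antagonists at once. At P24 replicate 2 held 9.37% of the mean of the other 3 libraries for Sfrp4, 19.4% for Dkk2, 50.8% for Sfrp1 and 70.5% for Sfrp5, but 96.7% for Dkk3 and 125% for Frzb. At P60 the library numbered 2 held 31.2% for Sfrp4, 34.6% for Dkk2, 62.3% for Sfrp1 and 62.7% for Sfrp5, with 109% for Dkk3 and 128% for Frzb. Sfrp2 and Wif1 had few counts at these stages and did not share 1 pattern. Sfrp2 had 0 counts in P24 replicate 2 but was the second highest in P60 replicate 2, at 75.8% of the mean of the others, and Wif1 held 63.5% at P24 and had 0 counts at P60. The 2 libraries are from different mice. The labels give them the same number and do not say whether they share sex or handling.

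The same 2 libraries were the lowest of their stage in the sums of the epineurial, perineurial and endoneurial marker lists. Epineurial markers (Pcolce2, Ly6c1, Pi16 and Clec3b, all 4 present) summed to 77.2 CPM in P24 replicate 2 against 131 to 164 CPM in the other P24 libraries, and to 122 CPM in P60 replicate 2 against 135 to 148 CPM. Perineurial markers summed to 518 CPM against 760 to 785 CPM at P24, and to 989 CPM against 1255 to 1387 CPM at P60. Endoneurial markers (Col2a1, Sox9, Pdgfra and Cd34) summed to 201 CPM against 331 to 437 CPM at P24, and to 259 CPM against 265 to 388 CPM at P60. This last sum is not specific to the endoneurium. Pdgfra and Cd34 averaged 182 and 114 CPM at P60, against 3.54 CPM for Col2a1 and 8.46 CPM for Sox9. The study describes Pdgfra in cells of all 3 compartments, and Cd34 in these, weakly in perineurial cells, and in endothelial cells. Adipocyte markers (Adipoq, Plin1 and Cidec) summed to 1.36 CPM against 37.7 to 73.9 CPM at P24, and to 51.2 CPM against 61.8 to 144 CPM at P60. Endothelial, pericyte and immune markers were also lowest in P24 replicate 2 (144 against 224 to 249 CPM, 384 against 486 to 549 CPM and 65.5 against 98.5 to 108 CPM), whereas in P60 replicate 2 none of these 3 sums was the lowest and the endothelial sum was the highest at 304 CPM. Of the Schwann cell markers, Mbp was highest in these libraries, at 47424 CPM against 36850 to 44129 CPM at P24 and 33075 CPM against 24093 to 29115 CPM at P60. S100b was highest in both as well (940 against 704 to 813 CPM and 1064 against 932 to 953 CPM). Sox10 and Ngfr were highest at P60 replicate 2 and lay within the range of the other libraries at P24. The part of these cell types in the levels of the antagonists was not tested.

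At P1 and P5 the library numbered 3 had the highest epineurial marker sum of its stage, 16.4 CPM against 4.08 to 6.96 CPM at P1 and 29.8 CPM against 14.6 to 18.1 CPM at P5. It was also highest in perineurial markers (226 against 150 to 204 CPM at P1, 218 against 173 to 210 CPM at P5) and endothelial markers (126 against 104 to 117 CPM, 171 against 138 to 146 CPM), and at P5 in pericyte markers (374 against 296 to 306 CPM) and adipocyte markers (6.80 against 0.0286 to 4.96 CPM). The library also held the highest level of Sfrp2, Sfrp4, Sfrp5 and Dkk2 at both stages. Without the libraries numbered 2 of P24 and P60, a choice made after their values had been seen, the same count of 6 antagonists was called between P1 and P60. Frzb then differed by 7.82 log2 units, Sfrp4 by 2.69 and Sfrp5 by 2.96. Sfrp2 was then called lower at P60 than at P24 (log2 fold change -2.17; adjusted p = 0.0488).

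**Figure D4:**
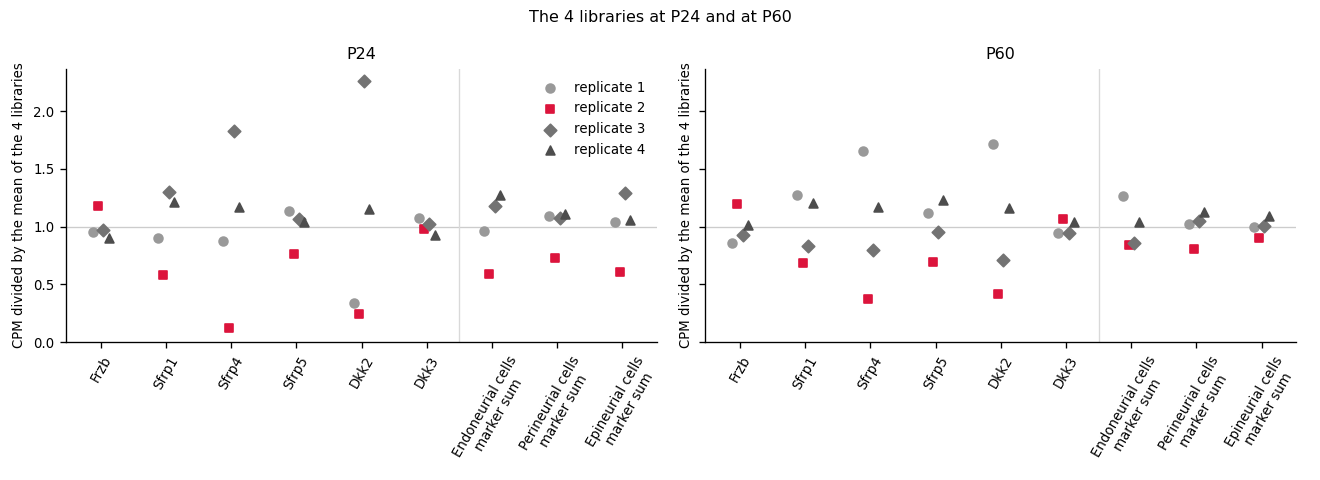
CPM of 6 antagonists and summed CPM of the endoneurial, perineurial and epineurial markers in each library at P24 (left) and P60 (right), divided by the mean of the 4 libraries of the stage (vertical axis, linear from 0; symbols mark the replicate number). Replicate 2, drawn as red squares, is the lowest for Sfrp1, Sfrp4, Sfrp5, Dkk2 and all 3 marker sums at both stages and the highest for Frzb, at 172 CPM of a P24 mean of 147 and 222 CPM of a P60 mean of 185.

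For each antagonist, the 3 protein-coding genes with the most similar course were sought by Pearson's r of log2 CPM over the 28 libraries, which share their stage and depth, as a description. Frzb was most like Col23a1 (r = 0.990), a transmembrane collagen, Wdr17 (0.985) and Ccer2 (0.981). Sfrp1 was most like Prss35 (0.979), Pxdn (0.971), a peroxidase of the extracellular matrix, and Igf2r (0.971). Sfrp5 was most like Acvrl1 (0.960), a receptor for bone morphogenetic proteins, Slc2a1 (0.957), the glucose transporter that is also 1 of the perineurial markers above, and Rarg (0.952). Among the genes most like Dkk3 were Dnaja4 (0.984) and Ecscr (0.983). Sfrp4 was most like Thbs1 (0.948), a secreted matrix glycoprotein, Mdfic (0.936) and Ecm2 (0.918). The weaker matches were those of the genes that were low after birth. Wif1 was most like Fgfr2 (0.923), Bloc1s6 and Necap1, Dkk2 was most like Chd3 (0.913), Sertad4 and Sema3a, and Sfrp2 was most like Gas1 (0.834), Wnt5a (0.823) and Moxd1 (0.815).

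The bases before the start site were read from RefSeq (GRCm38.p6) for the 3 antagonists whose start is at the same base in RefSeq and in the annotation used for the counts here. They are shown because they are the sequence next to the starts of Sfrp5, the antagonist with the highest level per length at P60, and of Sfrp2 and Dkk2, whose means were both highest at E13. Capitals mark matches on either strand to TATAAA (the TATA box) or GGGCGG (the GC box), and the 250 bases end just before the start site, with each sequence written along the gene's own strand.
Sfrp5 (chr19:42202253-42202502, minus strand): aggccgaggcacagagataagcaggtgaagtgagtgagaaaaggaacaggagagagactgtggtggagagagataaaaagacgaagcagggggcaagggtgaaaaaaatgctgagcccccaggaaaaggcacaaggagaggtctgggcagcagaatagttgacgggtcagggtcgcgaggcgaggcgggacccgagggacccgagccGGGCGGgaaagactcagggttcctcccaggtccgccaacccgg
Sfrp2 (chr3:83766071-83766320, plus strand): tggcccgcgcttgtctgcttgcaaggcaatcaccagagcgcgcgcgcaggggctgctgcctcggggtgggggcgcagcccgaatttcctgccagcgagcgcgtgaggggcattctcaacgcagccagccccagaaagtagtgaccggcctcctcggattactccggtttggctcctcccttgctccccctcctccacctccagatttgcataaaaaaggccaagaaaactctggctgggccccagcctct
Dkk2 (chr3:132085042-132085291, plus strand): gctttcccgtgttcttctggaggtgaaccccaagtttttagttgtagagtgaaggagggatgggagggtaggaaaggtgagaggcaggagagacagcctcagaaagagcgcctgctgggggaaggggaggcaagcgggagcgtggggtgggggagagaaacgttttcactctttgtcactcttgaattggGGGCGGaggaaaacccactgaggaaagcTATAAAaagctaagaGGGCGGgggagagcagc

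The Dkk2 sequence held TATAAA once, beginning 32 bases before the start, and GGGCGG at 60 and 17 bases before it. Sfrp5 held GGGCGG at 43 bases before the start, and Sfrp2 held neither. A core bound by TCF and LEF factors was searched as CTTTGAA besides CTTTGAT, together with CTTTGTA besides CTTTGTT, on both strands, and none of the 3 sequences held any of these 4 forms. Over the same 250 bases of all 32851 RefSeq promoters, 12.4% held TATAAA, 32.7% GGGCGG and 14.8% a form of the TCF and LEF core. The G and C content of these sequences was 63.6% for Sfrp2, 59.6% for Sfrp5 and 55.6% for Dkk2.

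The rest of the Wnt pathway was counted in lists by role, for the adult against the newborn nerve. The count of each list stands beside 20.3% of all genes called higher at P60 and 15.2% called lower. Of the 19 Wnt ligands, 16 were tested, 7 were called higher at P60 and 0 lower, with a median log2 fold change of 0.70 and no ligand lower at an unadjusted p under 0.05, in DESeq2 or in limma-voom. Wnt1, Wnt3a, Wnt4 and Wnt7a had at most 1 count in any P1 or P60 library. They could hardly be called in either direction, yet are among the 16 and in the median. In 2 of the 7 called ligands, Wnt3 and Wnt7b, no P1 library had more than 3 counts. All 10 counts of Wnt3 at P60 came from 1 library, and DESeq2 did not call it. Wnt2b, the ligand with the largest change among those above 10 CPM, went from 0.426 CPM at P1 to 19.9 CPM at P60 (log2 fold change 5.53 ± 0.58; adjusted p = 4.66e-09). P1 replicate 3 held 1.42 CPM of Wnt2b against 0.0729 to 0.124 CPM in the other P1 libraries, and without it the log2 fold change was 7.64. Among the 7 calls, that of Wnt3 was lost without P60 replicate 4 and that of Wnt11 without any of 4 single libraries. Of the pair that lipidates and releases Wnt proteins, Wls, the carrier to the cell surface, fell from 66.1 to 30.8 CPM (-1.10 ± 0.18; adjusted p = 4.76e-06), with -0.98 and thus no 2-fold change without P1 replicate 1, and Porcn did not reach 2-fold (0.95 ± 0.17).

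Of the 10 Frizzled receptors, 4 were called higher at P60 (20.3% of all genes) and 0 lower (15.2%), with a median log2 fold change of 0.76. Fzd4 (1.47 ± 0.24), Fzd2 (1.45 ± 0.30) and Fzd6 (1.15 ± 0.15) were higher, and the fourth, Fzd10, had no P1 library above 3 counts. At an unadjusted p under 0.05, and also at an adjusted one, Fzd8 was lower by less than 2-fold, and neither DESeq2 nor limma-voom called a receptor lower. Of the 10 co-receptors and other Wnt receptors, 2 were called lower, near the 15.2% of all genes, among them the receptor kinase-like Ptk7 (-1.98 ± 0.29), and 0 higher, although Lrp6 and Ryk were higher by less than 2-fold at an unadjusted and an adjusted p under 0.05 and limma-voom called Kremen2 higher and Adgra2 lower (-0.94 ± 0.15 in edgeR). Kremen2 had at most 1 count in any P1 library and at most 3 in any P60 library. The median of this list was -0.37.

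Of the 9 genes of the R-spondin module, which raises Wnt responses at the receptor, 8 were tested, 2 were called higher and 2 lower (median -0.34), near the 20.3% and 15.2% of all genes. For Rnf43, called higher here and among the target genes, no P1 library had more than 2 counts. Rspo1, a secreted enhancer, went from 0.639 CPM at P1 to 45.8 CPM at P60 (6.16 ± 0.36; adjusted p = 4.28e-14; 6.88 without P1 replicate 3). Of its receptors, Lgr6 (-4.28 ± 0.33; adjusted p = 9.66e-12) and Lgr5 (-3.47 ± 0.21; adjusted p = 1.07e-13) fell. Lgr4 did not pass the test (-0.32 ± 0.15; adjusted p = 0.0679). At P60 it averaged 83.0 CPM, against 10.2 CPM for Lgr5 and 2.71 CPM for Lgr6.

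Of the 11 other extracellular inhibitors, 7 were tested, 1 was called higher and 2 lower (median -0.57), beside 20.3% and 15.2% of all genes. DESeq2 and limma-voom each called a further one higher, Notum, which had at most 5 counts in any P60 library. Sostdc1, which binds LRP co-receptors and bone morphogenetic proteins, was at 441 CPM at E17, 290 CPM at P1 and 108 CPM at P60 and fell between the last 2 (-1.42 ± 0.14; adjusted p = 7.38e-10). Apcdd1, a membrane-bound inhibitor, rose from 5.09 to 38.2 CPM (2.91 ± 0.15; adjusted p = 5.23e-15), and Tpbg fell from 1.43 to 0.388 CPM (-1.87 ± 0.32). The Dickkopf relatives Dkk1 and Dkk4, and Sost and Cer1, were under the low-count filter.

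None of the 10 intracellular transducers was called in either direction by edgeR, DESeq2 or limma-voom (median -0.29). At an unadjusted p under 0.05, and also at an adjusted one, 2 were higher and 5 lower, among them Ctnnb1, which encodes beta-catenin (-0.45 ± 0.09), all under the 2-fold minimum. Of 12 commonly used target genes, 4 were called higher (20.3% of all genes) and 4 lower (15.2%), with a median of 1.11. This median lies between Axin2 (0.81 ± 0.17) and Sp5 (1.42 ± 1.51), and Sp5 had at most 1 count in any P1 or P60 library. Notum, with at most 5 counts in any P1 or P60 library, and Rnf43 also stood above it. The median thus rests in part on genes of few counts and is not a measure of the list as a whole. DESeq2 and limma-voom called 5 higher, with Notum added, and 5 of the 12 also stand in the lists above. Tnfrsf19 rose (3.34 ± 0.24; adjusted p = 3.59e-12), and Ccnd1, a cyclin that drives the cell cycle in many cell types, fell (-3.46 ± 0.28; adjusted p = 3.79e-11).

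**Figure D5:**
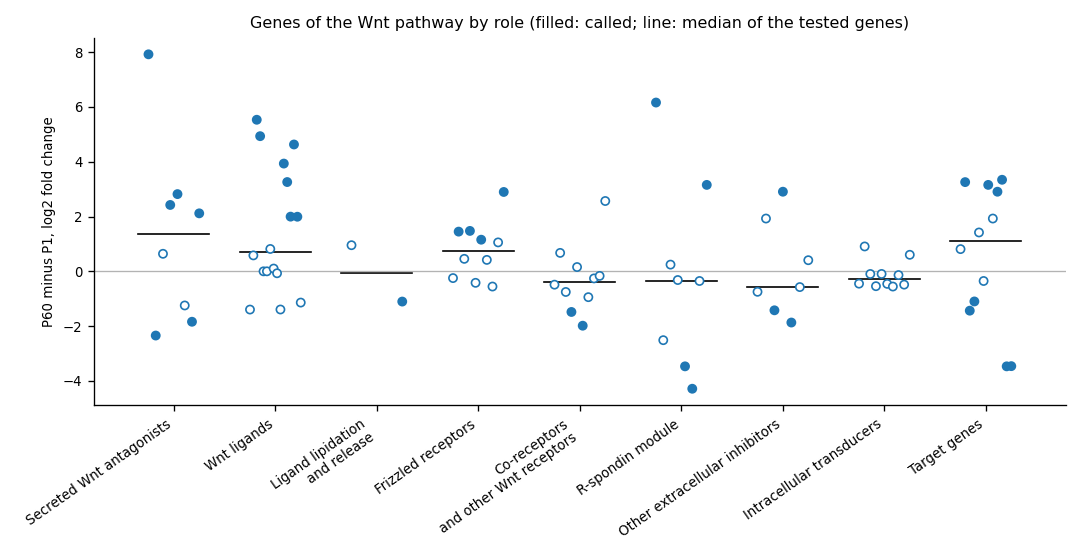
Log2 fold change between P1 and P60 (vertical axis; positive values are higher at P60) of every tested gene of the Wnt pathway, grouped by role (horizontal axis), with filled points for called genes and a line at the median of each group. The antagonists have a median of 1.38 and run from -2.34 for Sfrp1 to 7.92 for Frzb, while none of the 10 intracellular transducers is called.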

How the data were processed

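RNA of mouse peripheral nerve was sequenced by the authors as stranded, single-end messenger RNA libraries, trimmed, aligned with STAR (2.6.1c) and counted per gene with featureCounts. The deposited values are raw read counts per gene, not normalized by the authors. The submitters' processing notes name a mouse genome build and the study's methods a human one, while the identifiers are mouse. Whether counting used strand, and how reads with several positions were treated, is not given in the sources used here. Of 41605 identifiers, 41519 matched GENCODE M21 (GRCm38), which gave symbols, 1-based coordinates, exon length and GC content.

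Genes were filtered with filterByExpr (17700 left) and scaled by TMM. A quasi-likelihood model with stage as its term was fitted to the 28 libraries with edgeR 4.0.16 in R 4.3.3 (common dispersion 0.044), with Benjamini-Hochberg adjustment over all genes. The standard error is the log2 fold change over the square root of F. RPKM values divide TMM-scaled CPM by exon length. Likeness used log2 CPM with a prior count of 2 over 11368 genes of at least 10 CPM in their highest stage (11369 for Wif1). The named genes were the 8 members, the 3 genes most like each, and, in each other list, the 3 largest changes between P1 and P60 among called genes with a mean that reached 10 CPM in either stage. Schwann cell and neuronal markers cover 4 and 3 genes, and some listed markers and 1 gene of similar course are not reported here. Other inhibitors that passed the filter could be named as well. Wnt3, Wnt7b, Wnt11, Rnf43, Notum, Ctnnb1, Fzd10, Kremen2, Fzd8, Adgra2, Lrp6, Ryk and Porcn were named outside this rule, after their values were seen. So were Lgr4, Axin2, Sp5, Wnt1, Wnt3a, Wnt4 and Wnt7a. The members and lists were chosen with earlier results of these data known.

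Depth was 13899895 to 37662780 counts per library, so counting error matters for genes of a few counts, chiefly Wif1, and lower bounds cover counting error only. Libraries were taken as separate replicates, as the design text states, and replicate pairs differed by a chi-square of 5.21 to 293 per degree of freedom over 42 pairs. The fitting code was tested on simulated data. Alternatives were 2 other scalings, 2 other low-count filters, the Wald test of DESeq2 1.42.0, limma-voom (limma 3.58.1) with quality weights, the replicate number as a block, removal of GC trends, fits on fewer libraries, no fold change minimum and each library left out in turn. Promoter sequences came from RefSeq (GRCm38.p6), which held 5 of the 8 genes. In Frzb and Wif1 its start lay 229 and 44 bases inside the annotated transcript, and neither was printed.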

Additional observations from a re-analysis of the deposited data

Results flagged for a closer look

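Within each stage the library farthest from the other 3 was compared with the whole range of the 4 libraries, which gave 56 groups of 4 over the 8 genes. In 5 of them the gap, as a share of the range, exceeded the critical value of Dixon's test for 4 values, and chance alone marks about 1 in 20 groups. Frzb was lowest in P14 replicate 1, at 74.7 CPM against 92.0 to 95.1 CPM in the other libraries. In P1 replicate 3, Sfrp2 was highest at 1.64 CPM against 0.500 to 0.558 CPM, and Sfrp4 was highest at 12.6 CPM against 4.81 to 5.36 CPM. Sfrp5 was highest in P5 replicate 3, at 57.3 CPM against 43.5 to 45.7 CPM. Wif1 was highest in E13 replicate 1, at 4.01 CPM (121 counts) against 1.68 to 1.99 CPM, and this is the library with the GC slope of -0.93. Replicate 3 of P1 and of P5 had the highest sums of their stages in epineurial (16.4 and 29.8 CPM), perineurial (226 and 218 CPM) and endothelial markers (126 and 171 CPM). The part of these measures in the outlying values was not tested.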

How the results depend on the processing

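The count of 6 antagonists called between P1 and P60 was the same under every alternative run. Without a fold change minimum, 5 were past the test for P14 against P5, 1 for P24 against P14 and 2 for P60 against P24. From P24 to P60 the count was 0 to 2 when a library was left out, with Sfrp2 and Dkk2 called lower without P24 replicate 2, and 1 (Sfrp2) without the libraries numbered 2 of P24 and P60, a setting chosen after the data were seen. Of all 8 genes, 7 varied over the stages in limma-voom, where Sfrp4 did not pass. Of the 48 neighbour pairs in the orders of level, 17 passed the test, with 13 to 24 under the alternatives. The order of levels was not run without the E13 libraries.

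The replicate block gave 6 calls for P1 against E17 in place of 5, with Dkk2 gained, and 2 for P14 against P5 in place of 3, with Sfrp4 lost. Same-numbered libraries of different stages deviated with a median correlation of 0.084, and 33 of 84 such pairs were above 0.1, against a median of -0.04 and 29 of 252 for libraries with other numbers. The rule for pairing asked every same-numbered pair to be above 0.1, which noise in a single pair is enough to fail, so it cannot decide whether libraries are paired. The main fit does not use the numbers, and what same-numbered libraries share was not tested.

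The following uncalled fold changes changed sign. For Dkk3, E17 against E13 was 0.0453 in limma-voom and -0.12 to 0.0366 without single libraries, and P24 against P14 was 0.0446 by library size only and -0.0527 to 0.0128. For Sfrp5, P5 against P1 was 0.057 with GC trends removed, 0.000765 on the compared stages only, 0.0328 with the replicate block and -0.20 to 0.11 without single libraries. Leaving out single libraries gave -0.54 to 0.59 for Dkk2 and -1.14 to 1.91 for Wif1 (P24 against P14), -0.19 to 1.11 for Sfrp2 (P5 against P1), -0.00173 to 1.24 for Sfrp2 (P60 against P1) and -0.78 to 0.0551 for Sfrp4 (P60 against P24). None of these changes was called. The causes were not tested. With library size only, the median over all genes shifted by up to -0.25 on the log2 scale (E17 against E13) and by -0.19 for P60 against P1, whereas DESeq2 size factors shifted it by at most -0.03.

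Wif1 was under the low-count filter in every fit that held no E13 library, which includes the fits on the compared stages only for each comparison other than E17 against E13.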
